A study of Mus musculus with 6 samples.

Results

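The regions described here were promoter regions at which a peak of open chromatin was listed for L-EPSCs and for neither of the other cell states. ATAC-seq, in which the Tn5 transposase inserts adaptors into accessible DNA, had been run on mouse ESCs (J1 line, 129SV background) and on D-EPSCs and L-EPSCs, the cultures of expanded potential stem cells derived from ESCs by 2 published media. Each state had 2 libraries, which were technical replicates and shared 1 peak list, so there were 3 lists and no value per library. ESCs grew in serum medium with LIF, CHIR99021 and PD0325901, on feeder fibroblasts or gelatin. D-EPSCs grew in N2B27 with serum replacement, LIF, CHIR99021, dimethindene maleate and minocycline hydrochloride. L-EPSCs grew in DMEM/F12 with serum replacement, LIF, CHIR99021 and PD0325901, plus A-419259 (a Src family kinase inhibitor), XAV939 (a tankyrase inhibitor), JNK inhibitor VIII and SB203580 (a p38 inhibitor). LIF and CHIR99021 were shared by all 3 media, and both EPSC cultures had been kept without feeders before the assay. Peaks of the 3 lists on chromosomes 1 to 19 and X that overlapped by 1 bp or more were merged into 65518 regions, of which 10327 held a peak of L-EPSCs only. Of these, 513 had a midpoint no more than 1 kb from a start of a protein-coding transcript, and these were selected on the peaks themselves, so that their presence in L-EPSCs and absence from the other lists is a description and not a result. The lists held no height, score or p-value and sequencing depth was unknown, so the absence of a peak was not evidence that chromatin was closed, and no test between states was possible.

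A promoter is the DNA around a transcription start, where general factors and RNA polymerase assemble. Most promoters of widely used genes lie in CpG islands, stretches rich in the dinucleotide CpG that usually stay unmethylated and accessible, whereas promoters of tissue-restricted genes more often lack an island and open with sequence-specific factors. Pluripotent cells also hold many developmental genes under Polycomb repression, with promoters that can be accessible while the gene is little transcribed.

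The first sequences below are from the centres of the 3 widest L-EPSC only regions whose genes had no ESC or D-EPSC peak at any start. They show how far such regions differ in CpG content, and each CpG is in capitals. All sequences are of the plus strand of NCBIM37, the assembly of mm9. The stretch of Olfr1358 (chr10:77982663-77982862) is coding throughout, that of Foxa1 (chr12:58646612-58646722) has 72 coding and 39 intronic bases and was cut at the annotated UTR to one side of the midpoint, and that of Tbxa2r (chr10:80791231-80791430) lies in the upstream flank.
Olfr1358: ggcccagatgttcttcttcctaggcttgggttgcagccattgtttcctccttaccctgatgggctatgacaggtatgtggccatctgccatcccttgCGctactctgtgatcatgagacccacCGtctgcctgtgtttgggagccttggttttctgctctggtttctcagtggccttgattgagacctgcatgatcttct
Tbxa2r: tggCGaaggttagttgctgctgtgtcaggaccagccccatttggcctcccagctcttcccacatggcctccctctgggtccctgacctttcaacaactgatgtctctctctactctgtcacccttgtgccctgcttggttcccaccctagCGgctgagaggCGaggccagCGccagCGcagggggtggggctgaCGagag
Foxa1: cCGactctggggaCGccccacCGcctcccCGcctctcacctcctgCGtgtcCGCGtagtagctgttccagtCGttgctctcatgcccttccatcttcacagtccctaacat
The Olfr1358 stretch held 2 CpGs in 200 bases, the Tbxa2r stretch 6 in 200 bases and the Foxa1 stretch 8 in 111 bases. The observed CpG count over that expected from the C and G content was 0.145, 0.314 and 0.881 in that order.

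The next 3 sequences are from the only members whose 300 bp about the midpoint held a pair of hexamer words arranged as a direct repeat of the type bound by retinoic acid receptor and retinoid X receptor dimers. They are shown because retinoid receptor sites were examined in the study's motif comparison. The words searched were AGGTCA or GGGTCA and AGTTCA or GGTTCA, in any combination, on both strands, with 1, 2 or 5 bases between them, and they are in capitals. The site at Tnfsf13b (chr8:10006225-10006281) and that at Cbr1 (chr16:93608119-93608135) had a spacing of 5, and that at Cabin1 (chr10:75228029-75228082) a spacing of 2. In Cbr1 the repeat lay on the minus strand, in the annotated 5' UTR. The repeats at Tnfsf13b and Cbr1 were inside the region itself, while that at Cabin1 began 20 bp beyond the end of its region.
Tnfsf13b: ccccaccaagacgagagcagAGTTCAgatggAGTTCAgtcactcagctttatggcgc
Cabin1: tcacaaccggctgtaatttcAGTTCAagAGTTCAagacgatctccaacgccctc
Cbr1: TGAACCggtctTGAACC
Tnfsf13b encodes the B cell survival factor BAFF, Cabin1 an inhibitor of calcineurin and Cbr1 a carbonyl reductase. A match to these letters is a description of the sequence and not evidence of binding.

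The 513 regions were at the starts of 517 protein-coding genes, 2.31% of the 22342 coding genes of the annotation on these chromosomes. A single gene lay within 1 kb of the midpoint of 494 regions, and 19 regions had 2 or more gene records at hand. The 513 regions were 4.97% of all L-EPSC only regions (95% Wilson interval 4.57 to 5.40, counting error only, as for all intervals below). With the roles of the 2 EPSC lists exchanged, 1263 of 14633 D-EPSC only regions were at promoters, or 8.63% (8.19 to 9.10), and among ESC only regions 145 of 3354 were, or 4.32% (3.69 to 5.07). The share was thus lower among L-EPSC only than among D-EPSC only regions by more than the counting error, and its interval overlapped that of ESC only regions. The lists differed in length, with 28965 ESC, 50225 D-EPSC and 46601 L-EPSC peaks, which sets how often a peak can be listed alone. When each list was trimmed to its 28965 widest peaks, the promoter share was 7.32% (6.65 to 8.04) for L-EPSC only, 13.5% (12.7 to 14.4) for D-EPSC only and 5.32% (4.83 to 5.86) for ESC only regions. L-EPSC only regions thus stayed below D-EPSC only regions, while the interval now lay above that of ESC only regions. The trimming also removed the narrow peaks of the longer lists, so length and width changed together. It could also make a region L-EPSC only by dropping a D-EPSC peak that overlapped it. Of 6 defining genes of pluripotent stem cells, Pou5f1, Sox2, Zfp42 and Klf4 were opened at a start in every list, and Nanog and Esrrb in both EPSC lists but not in the ESC list. Of 6 fibroblast markers, Dcn, Lum and Postn had no peak in any list, Col1a1 had one in both EPSC lists, Col1a2 in D-EPSCs and Thy1 in ESCs and D-EPSCs.

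Most of the genes concerned were not opened at a start in L-EPSCs alone. At 182 of the 513 regions, or 35.5% (31.5 to 39.7), no gene within reach had an ESC or D-EPSC peak within 1 kb of any of its starts, and the region is called a sole opening below. At 199 (38.8%) the same genes also had peaks of both other states, at 124 (24.2%) a D-EPSC peak only and at 8 (1.56%) an ESC peak only. Counted by gene, 190 of the 517 genes (36.8%) had an L-EPSC only region and no peak of the other states at any start, 0.85% of all coding genes. Of all 22342 coding genes, 35.0% had no peak at a start in any list and a further 0.931% had one in L-EPSCs only. The share without an ESC or D-EPSC peak was thus near that of coding genes in general. Among D-EPSC only promoter regions the share without a peak of the other states was 57.6% (54.8 to 60.3), above that of L-EPSC only regions, and it was 38.6% (31.1 to 46.7) for ESC only promoter regions. With each list trimmed to its widest peaks these shares were 59.6% (54.7 to 64.4) for L-EPSC, 73.5% (70.5 to 76.3) for D-EPSC and 54.6% (49.6 to 59.5) for ESC. The share was below that of D-EPSC in both settings, and the intervals of L-EPSC and ESC overlapped in both. A D-EPSC only promoter region was present at 74 of the 517 genes (14.3%), beside 1218 of all 22342 coding genes (5.45%). A region found in both EPSC lists but not in ESCs was at 88 of the 517 (17%), and the share of all coding genes with such a region was not counted.

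The regions were often close to a peak of another list. The median gap from a region to the nearest ESC or D-EPSC peak was 2984 bp (interval 2165 to 3683), against 5319 bp (4613 to 6042) from D-EPSC only promoter regions to the nearest ESC or L-EPSC peak and 1412 bp (571 to 4166) from ESC only promoter regions to the nearest peak of the EPSC lists. The L-EPSC median depended on how regions were built, at 992 bp when merging needed 100 bp of overlap and 6546.5 bp after trimming to the widest peaks. The gap was at most 100 bp for 43 regions, more than that up to 500 bp for 84, from there to 1 kb for 62, and over 10 kb for 124. A gap of at most 1 kb was thus found at 36.8% (32.8 to 41.1) of L-EPSC only, at 22.9% (20.6 to 25.3) of D-EPSC only and at 45.5% (37.6 to 53.6) of ESC only promoter regions. The D-EPSC list held the closer peak at 408 regions, the ESC list at 103, and both were equally far at 2. As the D-EPSC list was longer, at 50225 against 28965 peaks, its peaks would more often be the closer at any site. The same split was not made for other classes. The closest were at Plekhg5, whose region lay 5 bp from a D-EPSC peak, and at Trpm1, 7 bp from an ESC peak. Without signal values, a separate site and the flank of a neighbouring accessible stretch cannot be told apart in such regions. Another L-EPSC peak lay within 1 kb of 130 regions (25.3%).

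The 10 widest regions with no peak of another state at the gene, among genes with more than a clone or model symbol, were at genes of varied function. The ranking left out a region of 631 bp at 3110039M20Rik for its symbol. The widest, of 911 bp, lay at Olfr1358 (chr10:77982308-77983218), which encodes an odorant receptor, and the nearest ESC and D-EPSC peaks were 31431 and 31501 bp away. Tbxa2r, the thromboxane A2 receptor, had a region of 719 bp (chr10:80790972-80791690) whose midpoint was 146 bp upstream of its start, with the nearest D-EPSC peak at 6389 bp. Foxa1, a pioneer factor of endoderm, had a region of 679 bp over its first exon (chr12:58646373-58647051). Foxa1 differed from the previous pair in that peaks of all 3 lists lay about the gene, at 2279 bp from the region for another L-EPSC peak, 2787 bp for D-EPSCs and 2922 bp for ESCs. Nlrc3, a NOD-like receptor that restrains innate signalling, had 663 bp, and Parp14, an ADP-ribosyltransferase of the interferon response, had 615 bp centred 25 bp downstream of its start. Cabp7, a neuronal calcium-binding protein, had 635 bp, and its nearest D-EPSC peak, 3377 bp away, overlapped a further L-EPSC peak. Pramel1, of the PRAME-like family expressed in germ cells and early embryos, had 624 bp. Exoc3l2, an exocyst-related gene of endothelium, had 585 bp, Apod, the lipid carrier apolipoprotein D, 582 bp, and Fmnl1, an actin-nucleating formin of blood cells, 577 bp. Their GC content ran from 37.3% at Apod to 74% at both Cabp7 and Fmnl1.

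**Figure D1:**
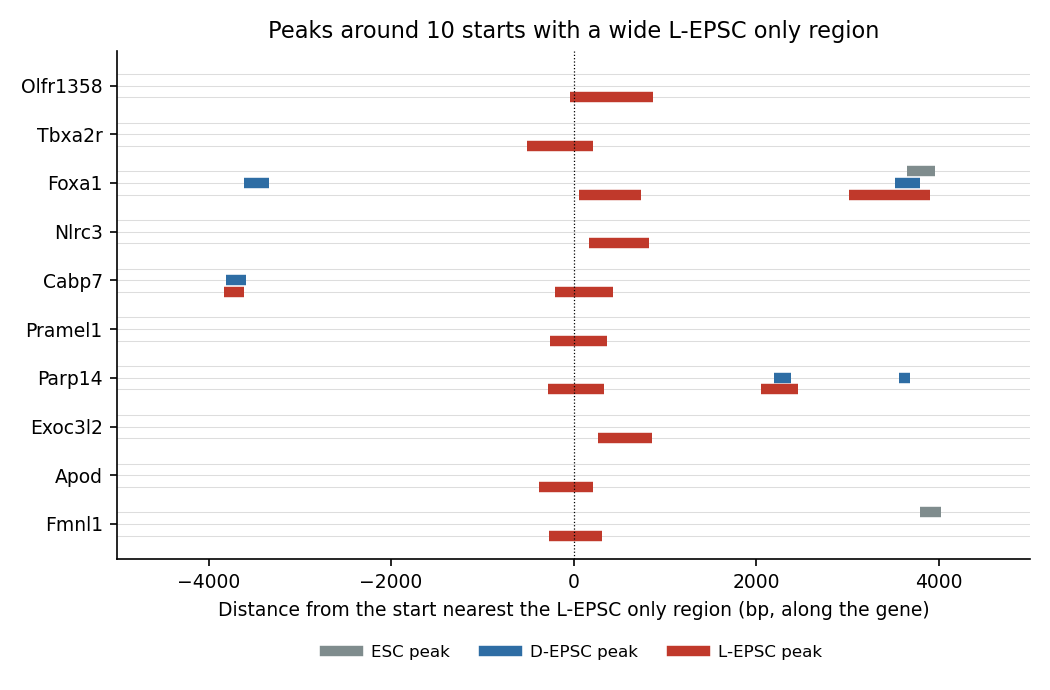
Peaks of ESCs (grey), D-EPSCs (blue) and L-EPSCs (red) within 5 kb of the start nearest to each of the 10 widest L-EPSC only promoter regions at genes without an ESC or D-EPSC peak at a start, clone and model symbols left out; the x axis is the distance from that start in bp along the gene and each bar is 1 peak. At Olfr1358, Tbxa2r, Nlrc3, Exoc3l2 and Apod no ESC or D-EPSC peak fell in the window, and the closest to a start was a D-EPSC peak that began 2199 bp from that of Parp14.

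The widest regions at genes that other states also opened had other starts or nearby flanks in the other lists. Hoxa7, a posterior homeobox gene, had a region of 779 bp (chr6:52167058-52167836) centred 57 bp downstream of a start that lay 4349 bp from the outermost start of the gene, and the nearest ESC and D-EPSC peaks were 3944 and 3633 bp away. Tmem82, a transmembrane protein, had 684 bp that ended 41 bp from a D-EPSC peak. Fanci, a DNA crosslink repair gene, had 679 bp in an intron with both other lists' peaks over 5 kb away. Hsh2d, a haematopoietic SH2 adaptor, had 655 bp and Rhbdl2, a rhomboid protease, 653 bp, both at genes with a D-EPSC peak at a start but none of ESCs.

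Of the pluripotency lists, the core and naive one had a share near that of all coding genes, and the formative and primed one had a larger share. Of 40 core and naive pluripotency genes, 36 were opened at a start in L-EPSCs, 37 in D-EPSCs and 29 in ESCs, and Sall4 alone had an L-EPSC only region, 2.5% of the list against 2.31% of all coding genes. At a start distance of 2.5 kb Eras, Sall4 and Tfcp2l1 had one, or 7.5% (2.58 to 19.9), where 4.28% of all coding genes did. With the widest peaks of each list Esrrb alone did. The Sall4 region was of 118 bp, the smallest width in the L-EPSC list, and lay at an internal start 11258 bp from the gene's outermost one. Among 24 formative and primed pluripotency genes 3 had such a region, 12.5% (4.34 to 31.0), an interval that lay above the 2.31% of all coding genes in this 1 of 19 lists, each chosen with results of these data known. They were Dnmt3a and Dnmt3l, the de novo DNA methyltransferase and its cofactor, and Pou3f1, the Oct6 factor of the epiblast. None was the sole opening of its gene. With the widest peaks of each list Dnmt3a and Pou3f1 had no region, and Dnmt3l and Lef1 had one, 8.33% (2.32 to 25.8) where 1.79% of all coding genes did. Dnmt3a (279 bp, chr12:3807662-3807940) lay 71 bp from a D-EPSC peak and 1006 bp from an ESC peak at a promoter with GC content of 85.0%. Dnmt3l (487 bp, chr10:77517777-77518263) lay at an internal start, 5029 bp from the nearest D-EPSC peak. Pou3f1 (257 bp) lay 372 bp from a D-EPSC peak, with no ESC peak within 34951 bp. The list of 26 DNA methylation genes overlapped this one and held only Dnmt3a and Dnmt3l. No region was at any of the 21 genes of the two-cell-like list found in the annotation, where 15 had no peak in any list.

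The lists of lineage and signalling regulators had 1 to 3 genes with a region each, and the interval of each list in this paragraph held the 2.31% of all coding genes. The lists do not hold every such regulator, and the Fgf, Hox and Lhx families are given further below. In primitive endoderm 2 of 25 genes had a region, 8% (2.22 to 25.0), namely Foxa1 and Hnf4a, the hepatocyte nuclear factor of visceral endoderm. The Hnf4a region (136 bp) was centred 58 bp downstream of a start, 13455 bp from the nearest ESC peak. Of 31 trophoblast genes only Gata2 had one (380 bp), with D-EPSC peaks elsewhere at its starts, 3.23% (0.572 to 16.2) of the list. This count depended on the peaks used. With the widest peaks of each list Ascl2, Bmp4, Dlx3, Elf5 and Gata2 had one, 5 of 31 or 16.1% (7.09 to 32.6), where 1.79% of all coding genes did. In the full lists the regions at Ascl2, Bmp4, Dlx3 and Elf5 overlapped a D-EPSC peak, which the trimming dropped. Of 33 gastrulation genes, Nog, a BMP antagonist, and Wnt3a, the ligand of the primitive streak, had one, 6.06% (1.68 to 19.6). The Wnt3a region (396 bp, GC content 84.0%) ended 13 bp from a D-EPSC peak and that of Nog (216 bp) lay 165 bp from one. Wnt2b, a further Wnt ligand, had a region of 529 bp 265 bp from a D-EPSC peak, so 2 of 66 Wnt pathway genes had one, 3.03% (0.835 to 10.4), both ligands. Of 75 lineage transcription factors 3 had a region, 4% (1.37 to 11.1). Lhx5, a LIM homeobox gene of the forebrain, had 523 bp over its first exon and no peak of the other states at its start. Pax1, of the sclerotome, had 163 bp and Runx2, of bone, 505 bp, each at a gene with a D-EPSC peak at a start. These counts also depended on the distance to a start, since at 2.5 kb primitive endoderm had 4 of 25, or 16% (6.4 to 34.7), and lineage factors 8 of 75, or 10.7% (5.50 to 19.7), where 4.28% of all coding genes had one.

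The lists drawn from the media and from retinoid biology gave counts of the same small size. Of 29 genes of the protein families and pathways that the compounds and LIF of the L-EPSC medium act on, 2 had a region, 6.90% (1.91 to 22.0) beside 2.31% of all coding genes, and both were p38 kinases. Mapk11 (p38 beta, which SB203580 inhibits) had 121 bp, 377 bp from a D-EPSC peak, and Mapk13 (p38 delta, known to be insensitive to it) had 207 bp, 846 bp from one. Mapkapk5, a kinase downstream of p38, had 367 bp in an intron. It was the only one of the 53 genes listed under MAP kinase signalling (1.89%, 0.334 to 9.94), a list that did not hold Mapk11 or Mapk13. Among 33 genes of retinoic acid receptors and retinoid handling, Meis2, a homeobox gene that retinoic acid induces, and Rdh12, a retinol dehydrogenase, had one, 6.06% (1.68 to 19.6) of the list beside the same 2.31%, and no receptor gene did. The count depended on the rule. At a start distance of 2.5 kb 6 of the 33 had one, or 18.2% (8.61 to 34.4), where 4.28% of all coding genes did, and after trimming to the widest peaks 3 had one, and the receptor gene Rara was among them in both settings. The region at Rara after trimming overlapped a D-EPSC peak in the full lists, which the trimming dropped. The Rdh12 region (136 bp) was centred 55 bp upstream of its start and no peak of the other states lay within 16786 bp, whereas Meis2 (343 bp) had a D-EPSC peak 2648 bp away.

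The lists of metabolism and translation had 0 or 1 gene with a region each, and each interval held the 2.31% of all coding genes. They do not hold every related gene, and Acad12, Atp5j and Eif4ebp3, which were in none of them, had regions too. No region lay at the 35 genes of the tricarboxylic acid cycle and pyruvate dehydrogenase or at the 33 genes of glycolysis, of which 33 and 25 were opened at a start by every list. Cpt1b, the muscle form of the carnitine transferase that admits fatty acids to mitochondria, was the only one of the 44 genes listed under respiratory chain and fatty acid oxidation, 2.27% (0.402 to 11.8). Its region (470 bp, chr15:89256050-89256519) was centred 9 bp from the start and was the sole opening of the gene. Eif2c2 was the only one of the 49 genes listed under translation initiation (2.04%, 0.361 to 10.7), with 203 bp 483 bp from a D-EPSC peak. It encodes Argonaute 2, a small-RNA effector, and shares the Eif symbol stem. At a start distance of 2.5 kb the tricarboxylic acid list had 1 of 35, glycolysis 2 of 33, the respiratory chain list 2 of 44 and translation initiation 1 of 49. Of all coding genes 4.28% had one at that distance. Of 53 germline genes, 32 had a D-EPSC, 27 an L-EPSC and 18 an ESC peak at a start, and Spo11 and Dpep3 had an L-EPSC only region with no other state at the gene. Spo11, which makes the breaks of meiotic recombination, had 348 bp at GC content of 69.3%, with a D-EPSC peak 1993 bp away. Dpep3, a testis dipeptidase, had 203 bp. Of 25 fibroblast feeder markers only Col5a2, a fibrillar collagen, had one (142 bp), with the nearest peak of the other lists 142925 bp away. That list had a peak at a start for 12 genes in L-EPSCs, 16 in D-EPSCs and 9 in ESCs, and the part of feeder cells in any region was not tested. None of the 31 genes of immune and epithelial identity had one.

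**Figure D2:**
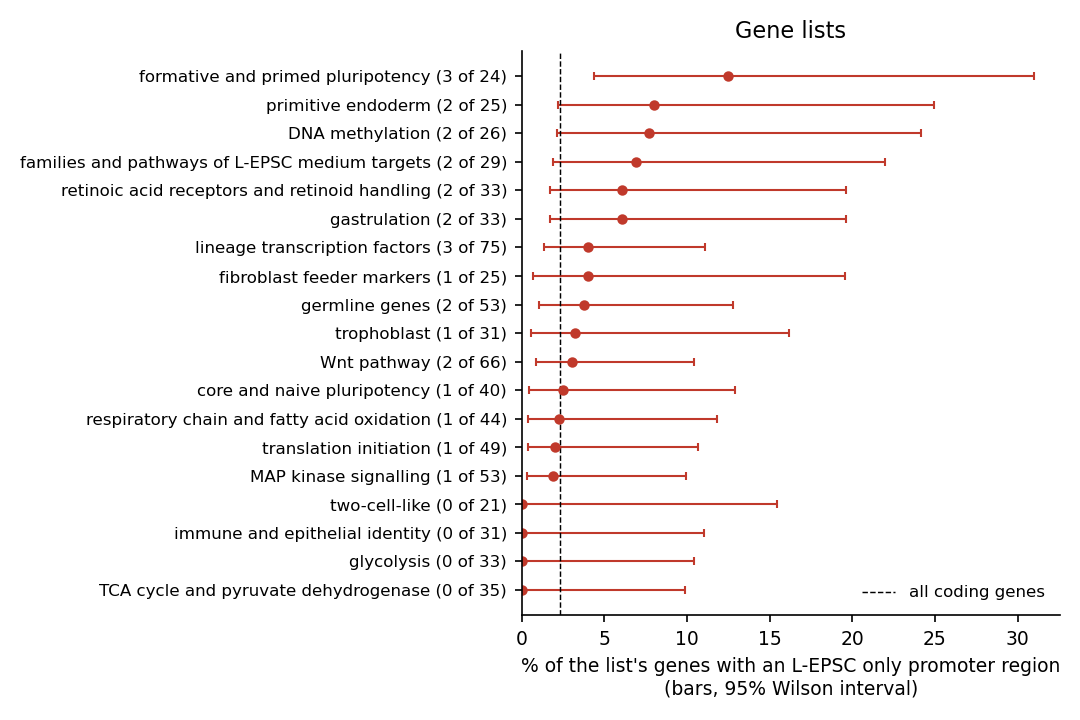
Share of each gene list with an L-EPSC only promoter region at a start (x axis, percent; points with 95% Wilson intervals) beside the share of all coding genes (dashed line at 2.31%). The labels give the number of genes with a region and the number of listed genes in the annotation; only the interval of the formative and primed list, from 4.34 to 31.0%, lay wholly above the line.

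Other genes were picked after their values were seen, and no weight rests on how many there were. Of 236 families of 10 or more genes that share a symbol stem, 38 had 2 or more genes with a region, and among these the Fgf family had the largest share, 4 of 22 (18.2%, 7.31 to 38.5), beside 2.31% of all coding genes. As families were ranked by this share, the comparison is a description only. Fgf2, an FGF ligand that supports primed pluripotent cells, had 167 bp, 59 bp from a D-EPSC peak. Fgf9 had 129 bp, 1334 bp from a D-EPSC peak. Fgf16 had 2 regions, of 354 and 292 bp, with D-EPSC peaks within 199 and 641 bp and no ESC peak within 164517 bp. Fgf17, a ligand of the midbrain and tail bud, had 254 bp over its first exon and was the sole opening among the 4. The Hox family had 5 of 39 genes (12.8%, 5.60 to 26.7), beside the same 2.31%, with 4 regions, namely those at Hoxa7, Hoxb5, Hoxb8 and one shared by Hoxd3 and Hoxd4. The region at Hoxb8 lay 17 bp from a D-EPSC peak, while that at Hoxb5 (124 bp) had no other peak within 8372 bp. Of 8 Lhx genes 4 had a region, namely Lhx4, Lhx5, Lhx6 and Lhx8. This share was larger than that of Fgf, but the family fell short of the 10 genes needed for the ranking. The region at Lhx8 was 620 bp wide, centred 3 bp from a start. Olfactory receptors had the smallest share of those 38 families, with 6 of 1113 genes (0.539%, 0.247 to 1.17), and families with fewer than 2 such genes were not ranked.

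The sole openings below were again picked after their values were seen and stand for no class of genes. The list of immune and epithelial identity had 0 of 31 genes with a region and that of germline genes 2 of 53, as given above. Zap70, the T cell receptor kinase, had 396 bp centred 23 bp upstream of a start, and Ikzf3, the lymphoid factor Aiolos, had 485 bp at GC content of 76.7%. Cd244, a receptor of natural killer cells, had 432 bp, and Il6, the interleukin, had 188 bp in its first intron with no other peak within 32070 bp. Mylpf, a myosin light chain of fast muscle, had 254 bp, and Tnni3, cardiac troponin I, had 125 bp. Syce3 and Spata22, both needed in meiosis, had 465 and 230 bp, and Gtsf1, of the piRNA pathway, had 137 bp with no ESC peak within 63423 bp. Ihh, the Indian hedgehog ligand of extraembryonic endoderm, had 127 bp centred 78 bp downstream of a start at GC content of 75.7%.

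A total of 15 coding genes had 2 regions each, and they were mostly pairs within a few kb or at separate starts of a long gene. Egr2, an early growth response factor, had regions of 121 and 318 bp, the first 466 bp and the second 911 bp from a D-EPSC peak. Myo5b, a vesicle motor, had 306 and 141 bp, and Frem3, an extracellular matrix gene, 118 and 414 bp, in both cases with a D-EPSC peak at the gene. Foxk2, a forkhead factor, had 118 and 377 bp, 10 and 190 bp from an ESC peak. Pak6, a p21-activated kinase, had 468 and 121 bp and was the gene of the 15 with an ESC but no D-EPSC peak at a start. Acad12, Cabin1, Fam53b, Fgf16, Itsn1, Plec, Spsb1, Ttc39a and Zfp64 were the others with a gene name, together with the gene model Gm13152. Gm13152 alone had no peak of the other states at a start.

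The regions were spread more widely about the start than those of D-EPSCs only, of both EPSC lists only or of all 3 lists. The median distance from midpoint to start was 285 bp (244 to 327) for L-EPSC only, 177 bp (160 to 193) for D-EPSC only, 128 bp (120 to 136) for both EPSC only and 105 bp (103 to 109) for regions of all 3 lists. For ESC only regions it was 346 bp (262 to 451), with 40% (32.4 to 48.1) within 250 bp, and both intervals overlapped those of L-EPSC only regions. The same held for the 74 promoter regions of ESCs and L-EPSCs only, at 222.5 bp (159 to 345) and 54.1% (42.8 to 64.9). A midpoint within 250 bp of a start was found in 46.0% (41.7 to 50.3), 59.1% (56.4 to 61.8), 71.1% (69.2 to 72.9) and 81.1% (80.3 to 81.9) of L-EPSC only, D-EPSC only, both EPSC only and all-3 promoter regions in that order. Within the L-EPSC only regions the spread came with the other peaks at the gene, at 67.6% (60.5 to 74) within 250 bp where no other state had a peak at the gene and 34.1% (29.2 to 39.4) where one had. A region beside a peak that sits on the start cannot itself sit there, so part of this contrast follows from the rule. The midpoint was downstream of the start in 55.8% (51.4 to 60.0), against 53.9% (51.2 to 56.7) of D-EPSC only regions and 59.9% (59.0 to 60.9) of regions of all 3 lists. The start was more than 100 bp from the outermost start of its gene in 43.1% (38.9 to 47.4), against 35.0% (32.4 to 37.7) and 20.8% (20.0 to 21.6). By annotation, 45.2% (41.0 to 49.6) of midpoints lay in introns, 98 of 513 (15.9 to 22.7%) in 5' UTRs, 13.3% in coding exons, 21.2% upstream or between genes and 1.17% in 3' UTRs. Of D-EPSC only promoter regions 35.9% (33.3 to 38.6) lay in introns, of ESC only ones 46.2% (38.3 to 54.3) and of regions of all 3 lists 20.2% (19.5 to 21.0).

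**Figure D3:**
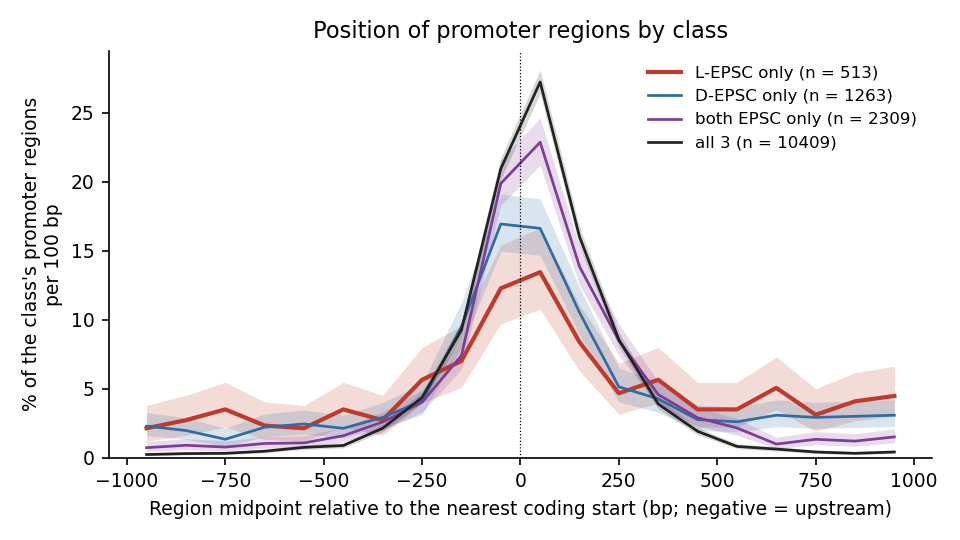
Position of the midpoint of promoter regions relative to the nearest coding start (x axis, bp, negative upstream) as the percent of each class per 100 bp (y axis), with 95% Wilson intervals as bands. L-EPSC only regions (red) reached 13.5% in the 100 bp after the start against 27.2% for regions of all 3 lists (black), and held 4.48% against 0.423% in the last 100 bp.

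The regions near the edge of the rule were ordinary members of this spread. The last inside 1 kb were at Defb30, Kcnh3 and Supt5h, with distances of 996, 999 and 1000 bp, and the first outside at Nisch, Bdkrb2 and Slc1a5, with 1004, 1010 and 1010 bp.

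The regions were narrow, each being a single L-EPSC peak. Their median width was 214 bp (202 to 232) and they ranged from 118 to 911 bp, against a median of 358 bp for all L-EPSC peaks, 261 bp (248 to 275) for D-EPSC only promoter regions and 886 bp (879 to 895) for regions of all 3 lists, which merge several peaks. A width under 200 bp was found in 45% (40.8 to 49.4) of them and in 21.9% (21.5 to 22.2) of all L-EPSC peaks. The smallest width of the L-EPSC list, 118 bp, was that of 39 regions (7.60%) and of 3.00% of the whole list. A width of 500 bp or more was found in 39 regions, or 7.60% (5.61 to 10.2), and in 18% (16 to 20.2) of D-EPSC only promoter regions. ESC only promoter regions had a median width of 258 bp (205 to 312) and 11.0% (6.91 to 17.2) at 500 bp or more, and both intervals overlapped those of L-EPSC only regions. Width was the only measure of size in the lists, and L-EPSC only distal regions, of median 210 bp, were as narrow.

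Base composition, which the rule did not use, placed the regions below promoters open in both EPSC lists only or in all 3 lists. In the 300 bp about the midpoint the median GC content was 56.0% (55.3 to 57.0), against 59.0% (58.3 to 59.7) in D-EPSC only, 65.3% (65.0 to 66.0) in both EPSC only and 66.7% (66.3 to 67.0) in promoter regions of all 3 lists. The ratio of observed to expected CpG was 0.383 (0.333 to 0.413), against 0.466 (0.445 to 0.485), 0.736 (0.723 to 0.749) and 0.831 (0.827 to 0.837). Sequence like a CpG island, with GC content of at least 50% and a ratio of at least 0.6, was present in 139 regions, or 27.1% (23.4 to 31.1), against 35.2% (32.6 to 37.9) of D-EPSC only and 81.8% (81.1 to 82.6) of all-3 promoter regions. At all coding starts it was present in 48.1%, and in L-EPSC only distal regions in 3.02% (2.70 to 3.37), so the L-EPSC only promoter regions lay between distal regions and promoters in general. Regions with and without another state's peak at the gene did not separate, with ratios of 0.384 (0.328 to 0.422) and 0.376 (0.316 to 0.450). ESC only promoter regions, of 54.3% (52.7 to 55.7) GC content and a ratio of 0.383 (0.319 to 0.452), had intervals that overlapped theirs. So did promoter regions of ESCs and L-EPSCs only, of 55.3% (53.3 to 57.0) and 0.411 (0.316 to 0.486), of which 27.0% (18.2 to 38.1) were like a CpG island.

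**Figure D4:**
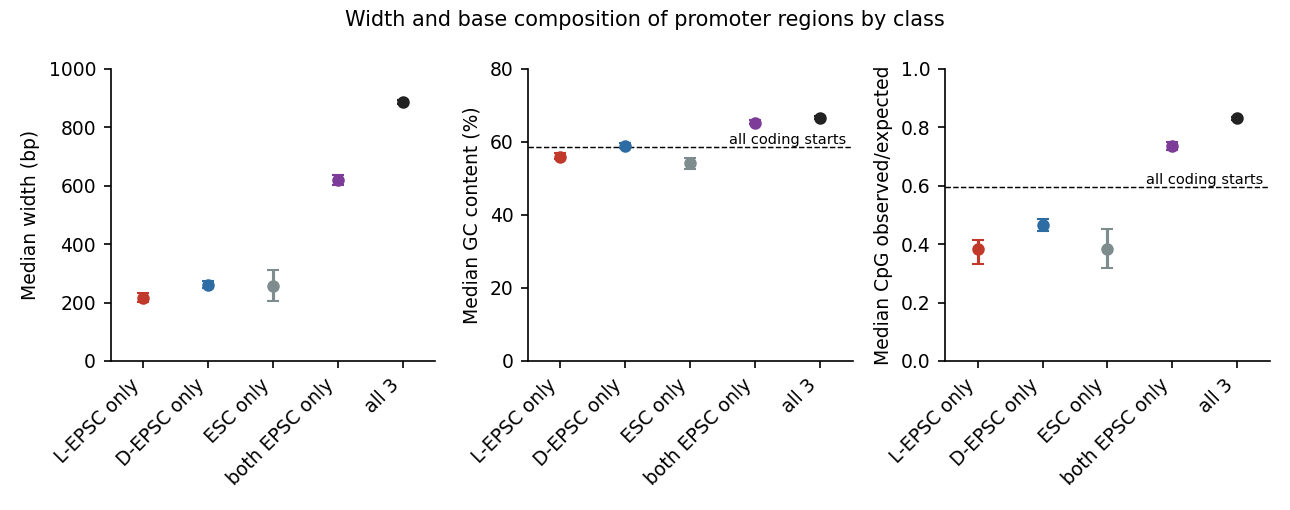
Median width (left, bp), GC content (middle, percent of the 300 bp about the midpoint) and observed over expected CpG (right) of promoter regions of each class, as points with 95% intervals of the median; dashed lines mark 300 bp windows at all coding starts. L-EPSC only regions had a median width of 214 bp, with an interval that overlapped that of ESC only regions, and with ESC only regions the smallest CpG ratio, 0.383.

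Exact words for 20 factor families and the direct repeats were searched on both strands in the same 300 bp. Each word was also searched reversed, which keeps its letters but can add or remove a CpG. Reversal adds a CpG to the REST-part, NRF1, YY1 and octamer words and removes that of the ETS, CRE and E-box words. For these words the reversed form is not a measure of letters alone. The GC box GGGCGG, the site of Sp and Klf factors, was present in 159 regions, or 31.0% (27.1 to 35.1), against 42.4% (39.7 to 45.2) of D-EPSC only promoter regions, 68.5% (67.6 to 69.4) of all-3 promoter regions and 45.3% of all coding starts. The reversed form GGCGGG overlaps the same GC-rich box and so gives no contrast for this word. The ETS word CCGGAAG (4.87%, 3.32 to 7.09), the NF-Y word CCAATCAG (1.17%, 0.537 to 2.53) and the CRE TGACGTCA (0.195%, 0.0344 to 1.1) were each rarer than in all-3 promoter regions, at 15.3%, 4.09% and 2.40%, as were the NRF1 word GCGCATGC (1.75% against 3.85%) and the YY1 word AAGATGGC (1.56% against 4.43%). The Zfp281 word CCCCTCCCC, whose reversed form has the same letters and so gives no contrast, was in 5.26% (3.64 to 7.55) against 10.8% (9.18 to 12.6) of D-EPSC only promoter regions. In both EPSC only promoter regions it was 9.79% (8.65 to 11.1). Its share was 6.87% at all coding starts, 7.62% (7.12 to 8.14) in all-3 and 4.83% (2.36 to 9.63) in ESC only promoter regions, and the L-EPSC only interval overlapped these.

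The intervals of 7 words lay above those of all-3 promoter regions, namely TEAD, REST-part, TATA, Esrrb, Sox, AP-1 and the single hexamer AGGTCA. The TEAD word CATTCCA, of the Hippo pathway factors, was in 29 regions, or 5.65% (3.96 to 8), against 1.95% for the reversed word, 1.76% (1.52 to 2.03) of all-3 promoter regions, 3.21% of all coding starts and 6.05% (5.60 to 6.54) of L-EPSC only distal regions. In D-EPSC only promoter regions it was 3.4% (2.54 to 4.55), an interval that overlapped. The word TCAGCACC, part of the site of the neuronal repressor REST, was in 20 regions, or 3.90% (2.54 to 5.94), against 0.195% reversed, 1.43% (0.903 to 2.24) of D-EPSC only promoter regions, 2.12% (1.86 to 2.42) of all-3 promoter regions and 1.86% of all coding starts. The reversed word CCACGACT holds a CpG and was rare elsewhere too, at 0.153% of L-EPSC only distal regions and 0.407% of all coding starts. The REST-part word was in 8 of 163 promoter regions of ESCs and D-EPSCs only, or 4.91% (2.51 to 9.38), no less often than in the L-EPSC only regions. Its genes included Wnt3a, Nkx1-1 and Col5a2, and REST-part and TEAD words were singled out from 21 after their values were seen. The TATA box TATAAA was in 9.16% (6.96 to 12), against 5.65% reversed, 5.38% (4.27 to 6.77) of D-EPSC only and 2.95% of all-3 promoter regions, but in 9.15% of all coding starts. The Esrrb word TCAAGGTCA was in 7 regions (1.36%, 0.663 to 2.79), against 0.390% (0.107 to 1.41) reversed, 0.633% (0.321 to 1.24) of D-EPSC only and 0.250% (0.171 to 0.366) of all-3 promoter regions and 1.97% of L-EPSC only distal regions, and all 7 were at genes with a peak of another state. Its interval overlapped those of the reversed word and of D-EPSC only promoter regions. The Sox word CATTGTT was in 3.12% (1.93 to 5.01), against 1.17% reversed, 1.11% (0.93 to 1.33) of all-3 and 2.85% (2.07 to 3.92) of D-EPSC only promoter regions. The AP-1 word TGANTCA was in 6.04% (4.29 to 8.45), against 4.09% reversed, 2.97% (2.66 to 3.31) of all-3 and 6.49% (5.26 to 7.99) of D-EPSC only promoter regions. The octamer ATGCAAAT of Oct4 was in 4 regions (0.780%, 0.304 to 1.99), at Glt28d2, Olfr548-ps1, Kctd4 and Olfr137.

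Words of retinoid receptor sites were found about as often as their reversed forms. The single hexamer AGGTCA was in 88 regions, or 17.2% (14.1 to 20.7), against 16.0% for the reversed word, 14.5% (12.7 to 16.5) of D-EPSC only and 9.18% (8.64 to 9.75) of all-3 promoter regions, where the reversed word was in 11.8%. The direct repeats printed above were in the 300 bp windows of 3 regions, or 0.585% (0.199 to 1.71), and the reversed words were in 0.585% as well. Within the regions themselves there were 2, or 0.390% (0.107 to 1.41). In L-EPSC only distal regions the repeats were in 116 of 9814, or 1.18% (0.986 to 1.42), against 0.408% reversed. Of the 3 promoter regions only that at Cbr1 (172 bp, chr16:93608072-93608243) was at a gene without a peak of the other states, centred 76 bp downstream of its start.

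**Figure D5:**
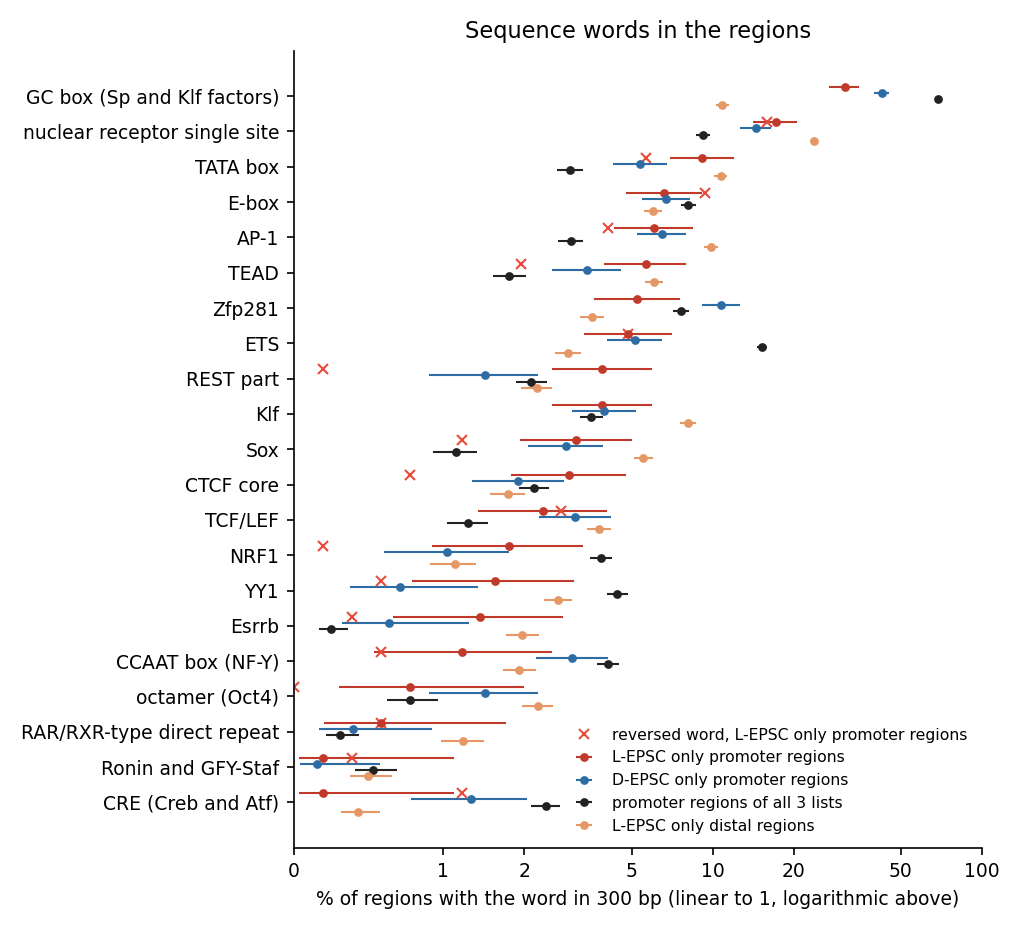
Share of regions that hold each sequence word in 300 bp about the midpoint (x axis, percent, linear to 1 and logarithmic above; points with 95% Wilson intervals) in L-EPSC only promoter regions (red), D-EPSC only promoter regions (blue), promoter regions of all 3 lists (black) and L-EPSC only distal regions (orange); crosses mark the reversed word in L-EPSC only promoter regions, left out where it overlaps the same site (GC box, Klf and Zfp281). The TEAD word (5.65%) stood above its reversed word (1.95%). The reversed REST-part word (0.195%, against 3.90%) holds a CpG that the word itself lacks.

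The promoter regions were not gathered near L-EPSC only distal regions. A distal L-EPSC only region lay within 20 kb of 22.4% (19 to 26.2) of them, of 21.4% (19.2 to 23.7) of D-EPSC only promoter regions and of 22.4% (21.6 to 23.2) of promoter regions of all 3 lists. A D-EPSC only distal region lay within 20 kb of 34.9% (30.9 to 39.1) of the L-EPSC only promoter regions and of 34.2% (31.6 to 36.9) of the D-EPSC only ones.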

How the data were processed

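Peak lists were used as deposited. The authors mapped reads of the 6 libraries onto mm9 (Bowtie2 2.3.5), filtered for proper pairs (SAMtools 1.10), ran MACS with its defaults and deposited the start and end of each peak, with no other value. FastQC 0.10.1 and Trim Galore 0.6.3 are named in the submitters' processing notes. How the 2 technical replicates entered each list, duplicate removal, transposase shift and blacklists are not given in the sources used here. Depth was unknown, and intervals cover counting error only.

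Regions were built in Python 3.11.15 with numpy 2.4.6 and scipy 1.17.1, and sequence was read with pysam 0.24.0 from NCBIM37. Starts were those of protein-coding transcripts in the GENCODE M1 annotation. The merging was checked against bedtools 2.31.1 on simulated peaks. Intervals of shares are Wilson and those of medians are from order statistics.

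Members, gene lists and tests were chosen with earlier results of these data known. Named were the 10 widest regions at genes without a peak of another state and the 5 widest others (clone and model symbols left out of the naming), all regions at genes of the 19 lists or with a direct repeat, those next to the 1 kb limit and genes with 2 or more regions. Gene model symbols were counted, and 55 regions had one. Of 722 listed genes 706 were in the annotation. No test was run, since each state had 1 list.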

Additional observations from a re-analysis of the deposited data

How the results depend on the processing

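No paired analysis was possible because each state had 1 peak list that pools its replicates, so leaving out a replicate was not possible either. Of 52 alternative values of the 6 main measures with an interval, 28 stayed within it, and 5 of 8 alternative numbers of regions were within 1.5 times the number reported. The cause of the changes was not tested beyond how each alternative was built. The number of regions, 513, was 949 at a start distance of 2.5 kb, 327 with outermost starts only and 121 with the wider L-EPSC peaks only. Of the 394 regions found with the widest peaks of each list, 181 were among the 513, and the others overlapped a dropped D-EPSC peak in the full lists. The share at genes with no other state, 35.5%, was 28.0% when merging needed 100 bp of overlap, 47.4% when neighbours up to 500 bp apart were merged, 48.0% at a start distance of 500 bp, 25.9% at 2.5 kb, 49.8% with outermost starts and 59.6% with the widest peaks. In that order of settings the median gap to another list's peak, 2984 bp, was 992, 5580, 3849, 1906, 1993 and 6546.5 bp. The median width, 214 bp, was 397 bp with the widest peaks and 457 bp with the wider L-EPSC peaks. The share downstream, 55.8%, was 60.9% with outermost starts. The median GC content, 56.0%, was 55.0% with neighbours merged, 54.0% at 2.5 kb, 59.3% with the widest peaks and 55.2% in 500 bp windows. The CpG ratio, 0.383, was 0.425 with 100 bp of overlap, 0.325 with neighbours merged, 0.302 at 2.5 kb, 0.442 with outermost starts and 0.558 with the widest peaks. With the widest peaks the p38 genes, Col5a2, Sall4, Dnmt3a and Pou3f1, among other listed genes, had no region. Of the 21 word shares, 9 left their interval in 500 bp windows, all upward, and 2 in the merged region. The Zfp281 share, 5.26%, was 9.55% in 500 bp, that of AP-1, 6.04%, was 10.3%, and that of AGGTCA, 17.2%, was 27.1%, while the Esrrb share, 1.36%, was 0.780% in the merged region. Other classes were not searched in these windows, so their contrasts hold for 300 bp only. Depth and the merging of replicates limit every count, since a region can be listed for 1 state only because the same site fell short of the caller's threshold in another.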
